A study of Homo sapiens with 6 samples.

Results

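The 9 genes described here encode the integrin subunits that bind collagens or laminins: the collagen-binding alpha subunits ITGA1, ITGA2, ITGA10 and ITGA11, the laminin-binding alpha subunits ITGA3, ITGA6 and ITGA7, their shared beta subunit ITGB1, and ITGB4, the other beta partner of ITGA6. They were chosen by name, though with earlier results of these data known. All 9 were found among the 25680 gene rows of each library and passed the filter on low counts. The cells were U87, an established human glioblastoma line labelled wild type. Every library came from cells given the rhodamine-tagged cyclic peptide EPP6 at 500 nM for 1 h, so that no untreated cells stand beside either group. After detachment the cells were sorted on rhodamine fluorescence, and the brightest 30% (high uptake, 3 libraries) were compared with the dimmest 30% (low uptake, 3 libraries), numbered 2, 3 and 4 in both groups. The series title names the proteins that take up cyclic peptides as its subject.

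Integrins are cell surface receptors made of an alpha and a beta chain that tie the extracellular matrix to the actin cytoskeleton. The alpha chain largely sets which matrix protein is bound: the collagen receptors carry an inserted domain that grips the collagen triple helix, while the laminin receptors bind basement membranes. The receptors are taken into endosomes and returned to the surface continuously, and they are known in glioma for their part in adhesion and invasion.

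Of the 9 genes, 4 were higher in high uptake and none was lower. ITGA11, a receptor for fibrillar collagen known from fibroblasts, rose 1.75-fold, ITGA2, the collagen receptor subunit of platelets and epithelia, 1.44-fold, ITGA7, a laminin receptor subunit best known from muscle, 1.42-fold and ITGB1 1.28-fold. The most abundant subunit, ITGA3, did not pass the test, nor did ITGA1, ITGA10, ITGA6 or ITGB4. Among all 14598 genes tested, 4.29% passed edgeR's adjusted p threshold of 0.05, with 3.03% higher and 1.26% lower in high uptake. Of these calls 70.6% were higher, and 56.6% with the GC trend of each library removed. The median log2 fold change of the 9 was 0.28, beside -0.00 over all genes tested.

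Total counts per library ranged from 13712263 to 40742857, high replicate 3 being the shallowest. The 9 genes took 0.347% to 0.361% of all counts in high uptake and 0.292% to 0.320% in low uptake. On the second principal component (31.5% of the variance) both libraries numbered 2 lay at one end, so the results are also given without them. Whether the replicates came from separate cultures is not stated in the labels, and the p-values then measure only the spread between these libraries. Low replicates 3 and 4 were closer to each other (chi-square per degree of freedom 2.44) than any other replicates (12.2 to 20.8). In sorted pools, more cells that express a gene and more RNA per cell cannot be told apart. Markers of a mesenchymal glioblastoma line (VIM, CD44, NES, S100A6 and CHI3L1) summed to 12840 to 13830 CPM, counts scaled to library size, in high and 12260 to 13100 in low uptake. Most of this was VIM (10530 and 10270 CPM on average). CD44 (1954 and 1753) and CHI3L1 (112.9 and 57.0) averaged higher in high uptake, NES (19.9 and 22.5) and S100A6 (553.6 and 664.5) lower. None of the 5 passed. Of the astrocyte markers, GFAP, the astrocyte filament, stood below 1 CPM on average in both groups (0.564 and 0.666). ALDH1L1 stood at 0.139 and 0.203 CPM and AQP4 at 0, but SLC1A3 at 34.6 and 39.0 CPM. EPCAM stood at 1.14 and 1.25 CPM.

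Levels were compared between genes on the TPM scale, which divides by gene length. ITGA3 stood highest, at 1028 ± 95.9 TPM in high and 937.9 ± 84.2 TPM in low uptake (mean ± SD, n = 3 each), followed by ITGB1 at 665.7 ± 80.9 and 507.7 ± 33.8 TPM. Far below came ITGA2 (58.5 and 39.8 TPM), ITGA7 (40.8 and 28.1), ITGA11 (30.7 and 17.1) and ITGA1 (8.83 and 7.84). ITGA10 (2.70 and 2.27), ITGA6 (1.03 and 1.31) and ITGB4 (0.460 and 0.336) stood lowest. This order was the same in both groups, and no neighbours in it overlapped within a group. By RNA level, then, the laminin-binding ITGA3 was the main alpha subunit of the 9 in these cells, and ITGA2 and ITGA11 the main collagen-binding ones.

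**Figure D1:**
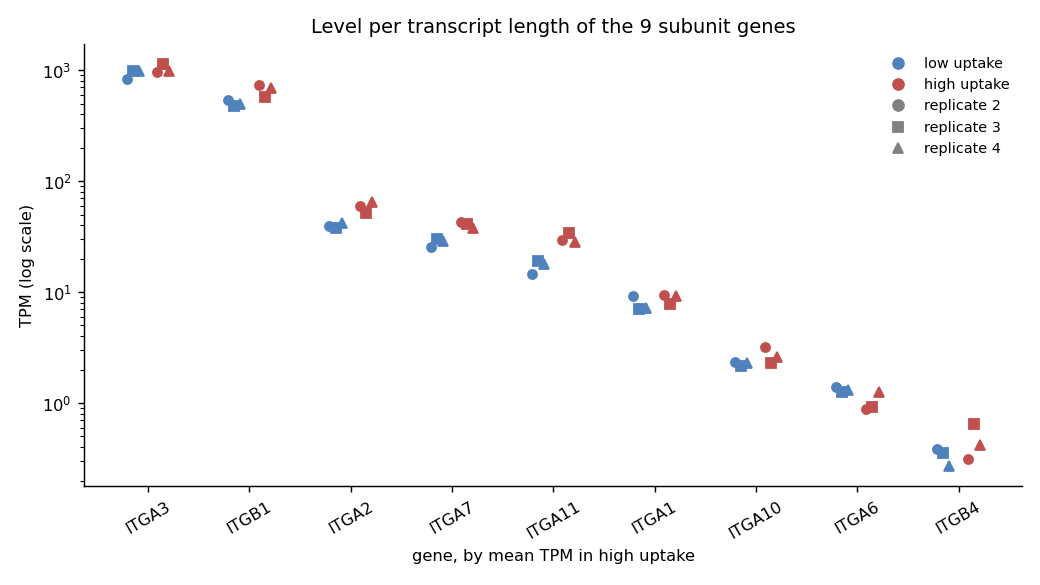
TPM on a log scale for each of the 9 subunit genes, ordered by mean TPM in high uptake; each point is 1 library, coloured by group and shaped by replicate number. ITGA3 and ITGB1 stand above all other subunits in every library, and ITGA6 and ITGB4 lie near or below 1 TPM.

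Among the collagen-binding subunits, ITGA11 showed the largest change. Its CPM, scaled by TMM, was 60.5, 70.8 and 56.5 in high replicates 2, 3 and 4 and 29.7, 40.5 and 37.4 in low replicates 2, 3 and 4. Every high-uptake library stood above every low-uptake one, and high replicate 3 was the highest. The log2 fold change was 0.81 (SE 0.126, adjusted p = 0.00529). ITGA2 stood at 190.5, 168 and 205 CPM in the high-uptake libraries and 129, 126 and 138 CPM in the low-uptake ones. Here too the groups did not overlap, but high replicate 3 was the lowest of its group. The log2 fold change of ITGA2 was 0.52 (SE 0.0887, adjusted p = 0.00835). Both calls were kept in each of the 18 alternatives tried, including without both libraries numbered 2 (log2 0.70 for ITGA11 and 0.50 for ITGA2).

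ITGA1, a collagen receptor subunit that also binds laminin, overlapped between the groups. It stood at 18.3, 15.5 and 17.9 CPM in high uptake and 18.0, 14.3 and 14.6 CPM in low uptake, both libraries numbered 2 being the highest of their group. Its log2 fold change was 0.14 (95% interval -0.12 to 0.40, adjusted p = 0.589). Exons of ITGA1 share 475 bases with PELO on the same strand in GENCODE, and reads there cannot be assigned to either gene. ITGA10, known from cartilage, had 274, 66 and 178 counts in high uptake and 192, 104 and 101 in low uptake. This came to 4.90 to 6.78 CPM and 4.73 to 4.97 CPM, so that the groups overlapped and high replicate 2 stood apart as the highest. The log2 fold change of ITGA10 was 0.24 (95% interval -0.09 to 0.57, adjusted p = 0.431). The intervals of ITGA1 and ITGA10 reach as far as the estimate for ITGB1, so a change of that size is not shown to be absent.

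Among the laminin-binding subunits, ITGA7 was the one that passed. It stood at 77.4, 75.2 and 67.0 CPM in high uptake and 46.5, 55.6 and 53.0 CPM in low uptake. The groups did not overlap, and low replicate 2 was the lowest of all. The log2 fold change was 0.50 (SE 0.0967, adjusted p = 0.0156). The call was lost without high replicate 2 (log2 0.46, adjusted p = 0.0518) or low replicate 4 (log2 0.52, adjusted p = 0.0604). Of the muscle markers, MYOD1 was at 0 in all 6 libraries, DES averaged 0.0200 CPM in high uptake and was at 0 in low uptake, and MYH3 stood at 1.73 and 2.66 CPM (adjusted p = 0.108).

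ITGA3, which binds laminins of epithelial basement membranes, did not pass. Its CPM was 1952, 2358 and 1999 in high uptake and 1733, 2101 and 2067 in low uptake. In both groups replicate 2 was the lowest and replicate 3 the highest, and the groups overlapped. The log2 fold change was 0.10 (95% interval -0.11 to 0.31, adjusted p = 0.652), and -0.01 without high replicate 3. Every library held at least 31771 counts of ITGA3. ITGA6 was the one member of the 9 with a negative value. It had 85, 30 and 98 counts in high uptake and 128, 67 and 65 in low uptake. In CPM the high-uptake libraries (2.10, 2.23 and 2.94) all lay below the low-uptake ones (3.31, 3.05 and 3.18), yet the gene did not pass (log2 -0.38, 95% interval -0.78 to 0.01, adjusted p = 0.289).

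ITGB1, which pairs with every alpha subunit above, had 49393, 13117 and 37367 counts in high uptake and 35238, 18101 and 17550 in low uptake. That is 1223, 973.5 and 1121 CPM against 912, 823 and 858 CPM. The groups did not overlap, though high replicate 3 came close to low replicate 2. The log2 fold change was 0.36 (SE 0.0887, adjusted p = 0.0464), the call nearest to the threshold among the 4. Leaving out high replicate 2 (log2 0.28, adjusted p = 0.138) or high replicate 4 (adjusted p = 0.119) ended it, as did leaving out low replicate 3 (0.171) or low replicate 4 (0.175). It was lost also with upper quartile scaling (0.0521), with total counts alone (0.0709) and with the gene length trend removed (0.0604). A processed pseudogene, AC022149.1, matches 16.1% of the longest ITGB1 transcript at up to 100% identity, and how reads with several matches were handled is not given in the sources used here. ITGB4, which anchors hemidesmosomes, had 31, 22 and 34 counts in high uptake and 37, 20 and 14 in low uptake. The groups overlapped, and at this depth the 95% interval of its log2 fold change ran from -0.41 to 0.98 (estimate 0.28, adjusted p = 0.699).

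**Figure D2:**
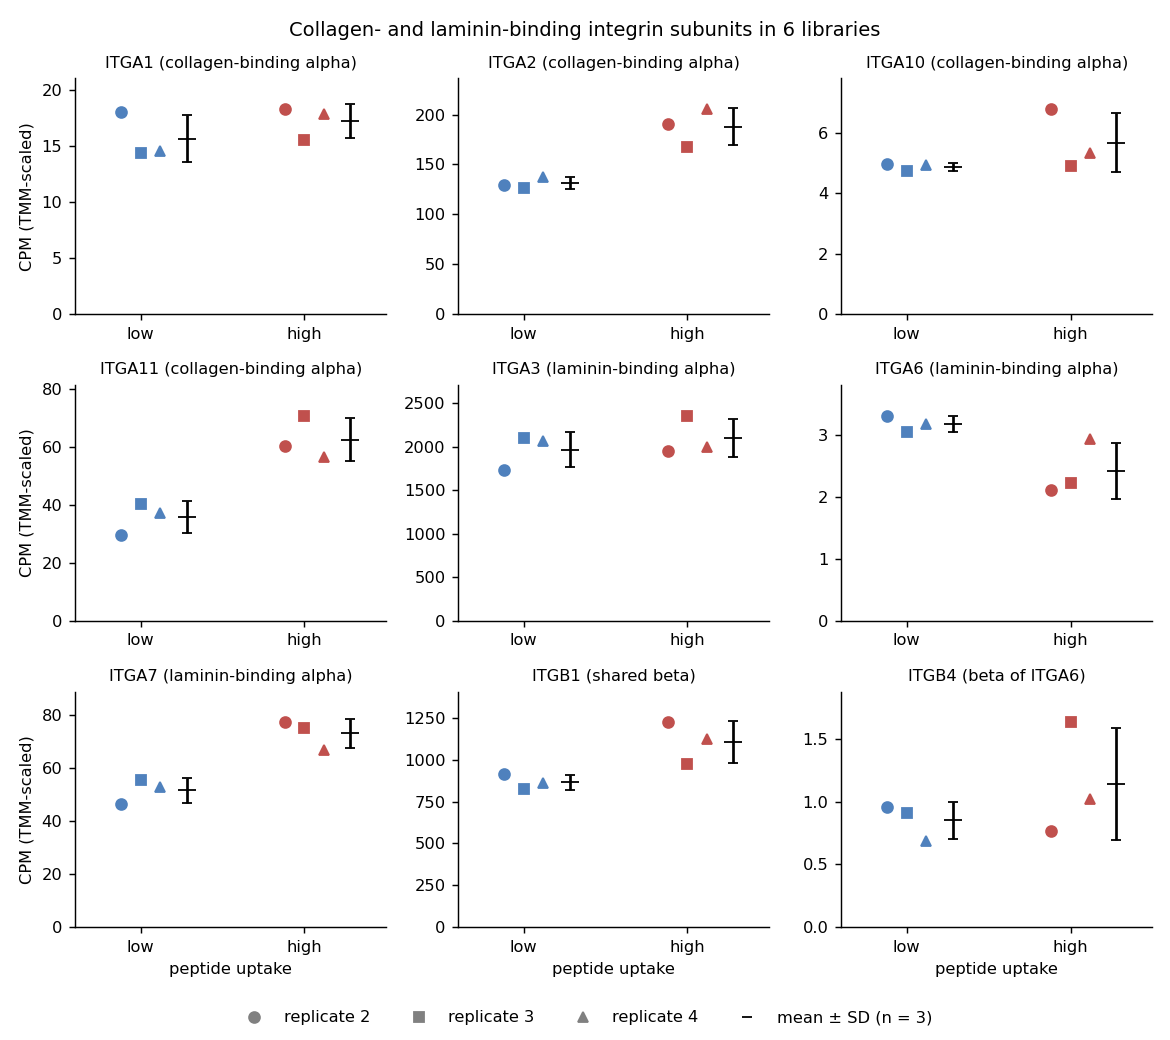
TMM-scaled CPM of each of the 9 subunit genes in low and high uptake; points are libraries, shaped by replicate number, and black bars are the mean ± SD of 3 libraries. The groups do not overlap for ITGA2, ITGA11, ITGA7 and ITGB1 (high above low) and for ITGA6 (high below low).

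Non-overlap of the groups was thus seen in 5 of the 9 genes, beside 24.4% of all genes tested, upward in 4 (13.0% of all) and downward in 1 (11.4%). The authors' deposited list of 2305 symbols, which holds no values and does not name its test, includes ITGA2, ITGA11, ITGA7 and ITGB1 and no other of the 9. It holds 15.8% of the genes tested here and rests on the same libraries, so it is not a second measurement.

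The makeup of each receptor family was then described as shares of summed TPM. Within the collagen-binding group, ITGA2 made up 58.3%, 53.7% and 61.8% in high replicates 2, 3 and 4 and 60.5%, 57.2% and 60.4% in low replicates 2, 3 and 4, which overlapped (exact permutation p = 0.7). ITGA11 made up 30.6% ± 4.61 in high and 25.6% ± 3.47 in low uptake (SD, n = 3 each), also overlapping (exact permutation p = 0.2). The shares of ITGA1 (8.76% ± 0.533 against 11.7% ± 1.94) and ITGA10 (2.68% ± 0.435 against 3.38% ± 0.160) were lower in every high-uptake library than in any low-uptake one. Within the laminin-binding group, ITGA3 made up 96.1% ± 0.427 in high and 97.0% ± 0.0797 in low uptake, and ITGA7 3.83% ± 0.428 and 2.91% ± 0.0655, both without overlap. For these 4 shares without overlap the two-sided exact permutation p was 0.1, the smallest that 3 against 3 libraries allow, and 0.2 after Benjamini-Hochberg adjustment over 8 tests. A call at 0.05 was therefore out of reach.

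The summed collagen-binding alpha subunits came to 101.5, 95.8 and 104.8 TPM in high uptake and 65.8, 66.3 and 68.9 TPM in low uptake. The groups stood well apart. The summed laminin-binding alpha subunits, nearly all ITGA3, came to 999, 1179 and 1031 TPM against 868, 1023 and 1011 TPM, and overlapped. Their ratio, collagen-binding per 100 laminin-binding, was 9.48 ± 1.17 in high and 6.96 ± 0.560 in low uptake (exact permutation p = 0.1, the smallest possible). This ratio was not among the 8 tests adjusted together, and it was not repeated under the alternatives. All 7 alpha subunits together held 1.79 ± 0.373 times the TPM of ITGB1 in high uptake and 2.05 ± 0.297 times in low uptake, a difference within the spread (exact permutation p = 0.3).

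Promoter sequence is shown for 3 of the 4 members that rose, with simple elements looked for in all members that could be matched. RefSeq's promoter table (GRCh38.p14) was matched for 6 of the 9 genes: ITGA2, ITGA11 and ITGB1, and ITGA1, ITGA10 and ITGA6, which did not pass. ITGA7, ITGA3 and ITGB4 were not matched. Shown 5′ to 3′ are the bases from 250 to 31 before the most upstream listed start, with GC boxes (GGGCGG on either strand), the element bound by Sp1-type factors, in capitals. The windows are chr5:52989102-52989321 (plus strand), chr15:68432194-68432413 (minus strand) and chr10:32958261-32958480 (minus strand).
ITGA2: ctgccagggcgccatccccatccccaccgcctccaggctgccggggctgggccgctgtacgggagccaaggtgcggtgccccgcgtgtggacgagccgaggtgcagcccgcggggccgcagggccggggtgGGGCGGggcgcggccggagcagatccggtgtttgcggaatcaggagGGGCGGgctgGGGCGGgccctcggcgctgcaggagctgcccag
ITGA11: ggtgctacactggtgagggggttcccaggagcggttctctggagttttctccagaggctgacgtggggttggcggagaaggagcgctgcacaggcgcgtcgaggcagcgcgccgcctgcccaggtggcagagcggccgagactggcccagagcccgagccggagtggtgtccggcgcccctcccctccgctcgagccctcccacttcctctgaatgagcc
ITGB1: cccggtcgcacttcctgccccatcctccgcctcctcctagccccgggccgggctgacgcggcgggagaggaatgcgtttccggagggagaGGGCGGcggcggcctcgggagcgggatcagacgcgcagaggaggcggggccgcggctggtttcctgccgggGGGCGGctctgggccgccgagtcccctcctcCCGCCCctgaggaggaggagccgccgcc
The window of ITGA2 held 3 GC boxes and that of ITGB1 also 3, while that of ITGA11 held none. Of 35116 promoter windows of the same length, 38.9% held at least 1. All of these windows were rich in G and C, at 78.2% for ITGA2, 69.5% for ITGA11 and 77.3% for ITGB1, beside a median of 57.7%. No TATA box (TATAAA, 8.08% of all windows) and no AP-1 element (TGANTCA, 5.98%) was found in them on either strand, and a TEAD element (CATTCC, 10.7%) was found in that of ITGB1. None of these matches overlapped a GC box. The windows of ITGA1, ITGA10 and ITGA6 held 0 GC boxes, TATA boxes and AP-1 elements, at 61.8%, 48.2% and 51.4% G and C, and that of ITGA10 held 1 TEAD element. In GENCODE, 109 bases of the ITGA10 window lie in exons of ITGA10 itself, so that window is not wholly upstream sequence. The windows end 31 bases before the start, so a TATA box or other element nearer to it was not looked for. Absence of a TATA box from these windows therefore does not show that the promoters lack one. A match is only a string of letters, and whether these starts were used in U87 cells was not measured.

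The other 17 integrin subunits were described in the same way. Of the 11 tested, 2 rose and none fell, beside 3.03% higher and 1.26% lower among all genes tested. The median over the 11 was 0.29 on the log2 scale. ITGB3, the beta chain of the vitronectin receptor, stood at 311, 308.5 and 279 CPM in high uptake and 210.2, 234 and 213 CPM in low uptake (log2 0.45, SE 0.0789, adjusted p = 0.00987). ITGA4, which binds fibronectin and VCAM1, stood at 15.2, 12.5 and 13.4 CPM against 9.96, 9.27 and 8.85 CPM (log2 0.56, SE 0.114, adjusted p = 0.0205). Neither gene overlapped between the groups. ITGA5 and ITGAV, the abundant partners of fibronectin binding, had log2 values of 0.21 and 0.32 and did not pass (adjusted p = 0.282 and 0.127). With the GC trend of each library removed, a setting under which 18.9% of all genes passed, both did (adjusted p = 0.021 and 0.000617), making 4 of the 11, all higher; ITGAV also passed without high replicate 3 (0.0165). The adjusted p of ITGA4 was 0.0721 with high replicate 2 left out, 0.0543 with high replicate 4, 0.0784 with low replicate 3 and 0.107 with low replicate 4 left out, while ITGB3 lost its call without low replicate 4 (0.0659).

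**Figure D3:**
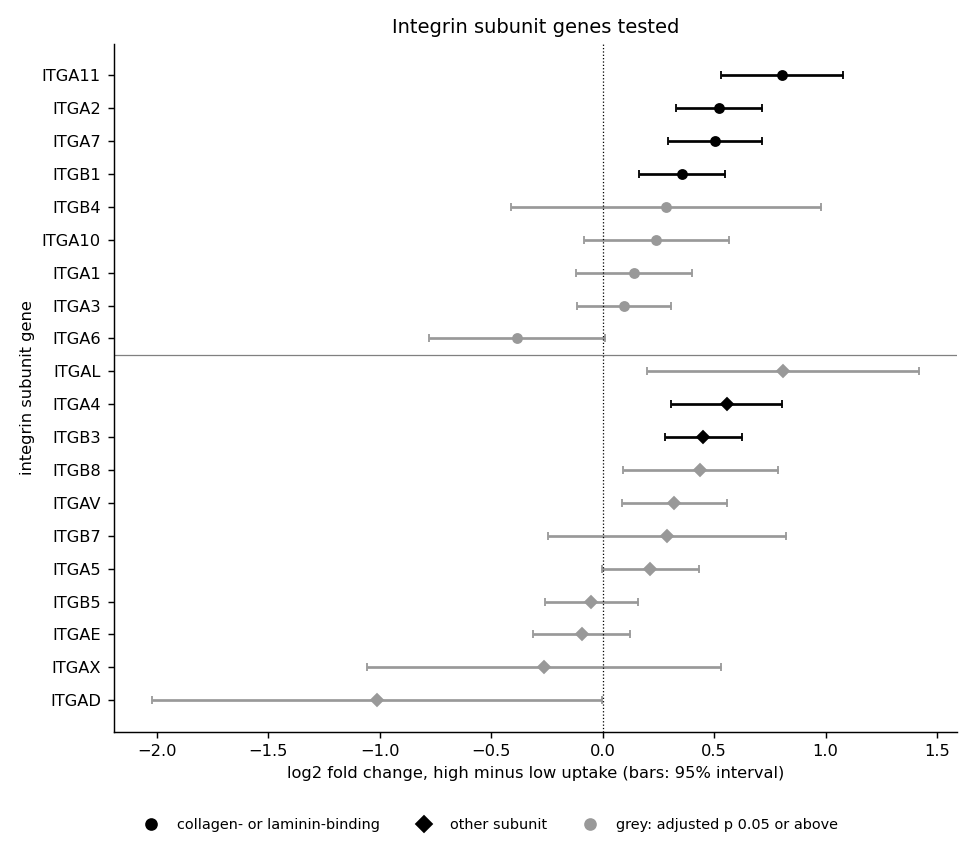
Log2 fold change, high minus low uptake, with its 95% interval for the 20 integrin subunit genes tested; circles are the collagen- and laminin-binding subunits, diamonds the others, and black marks an adjusted p under 0.05. ITGA11 has the largest value among the 6 that passed, and ITGB1 the smallest.

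The ligands of these receptors were set beside them. Of 13 collagen chains tested, 8 rose and none fell, beside 3.03% higher and 1.26% lower among all genes tested. The median over the 13 was 0.72 on the log2 scale. COL6A3, a chain of type VI collagen, stood at 3096, 3210 and 2703 CPM in high uptake and 1703, 1804 and 1784 CPM in low uptake (log2 0.77, SE 0.0782, adjusted p = 5.66e-04). COL1A1 and COL1A2, the chains of type I collagen and ligands of ITGA11 and ITGA2, rose by 0.98 and 1.37 on the log2 scale. Of 10 laminin chains tested, 4 rose and none fell, with a median of 0.28. LAMA4 stood at 77.2, 69.8 and 65.5 CPM against 28.9, 34.5 and 34.9 CPM (log2 1.12, SE 0.104, adjusted p = 4.06e-04), LAMA2, the main laminin alpha chain of muscle, rose by 0.85 and LAMC1, the gamma chain common to most laminins, by 0.52.

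For collagen and laminin receptors that are not integrins the calls depended on the processing. Of 5 tested, none passed in edgeR as tested, and 1 passed in DESeq2, which was MRC2, a receptor that takes collagen fragments into the cell (log2 0.46 in both, adjusted p = 0.0568 in edgeR and 0.00634 in DESeq2). Among all genes tested, 4.29% passed in edgeR and 6.08% in DESeq2. At an unadjusted p under 0.05 there were 3 of the 5 (MRC2, DAG1 and RPSA), and limma called 0 of them. MRC2 also passed with no filter (adjusted p = 0.00672), without both libraries numbered 2 (0.0217) and with the GC trend removed (0.000312), where DAG1 passed too (log2 0.20, adjusted p = 0.00974). With that trend removed, 18.9% of all genes passed. The median of the 5 was 0.20. Of 8 tetraspanins and related partners of laminin-binding integrins, 2 rose and none fell, with a median of 0.01: CD82 by 0.47 (adjusted p = 0.0154) and PTGFRN by 0.38 (adjusted p = 0.0187). Among all genes tested, 3.03% rose and 1.26% fell. CD151, the closest known partner of ITGA3 and ITGA6, stood at 423 ± 44.0 and 426 ± 35.3 CPM (log2 -0.01, adjusted p = 0.977).

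Of 41 cytoplasmic partners tested, in 5 lists, 3 passed (7.32%, beside 4.29% of all genes tested), all of them higher. Of 14 activators and adaptors, which include the talins and kindlins that switch integrins on, PARVA was the one that passed (log2 0.43, SE 0.0780, adjusted p = 0.0120), standing at 167, 146 and 158 CPM against 117, 118 and 117 CPM. PARVA binds the kinase ILK at adhesions, and the list's median was 0.02. Its call was lost without low replicate 3 (0.0506) or low replicate 4 (0.0761). FERMT3, the kindlin of blood cells, stood at 11.8, 16.7 and 14.7 CPM in high uptake and 17.9, 21.3 and 18.4 CPM in low uptake. Its groups did not overlap, and it did not pass in edgeR (log2 -0.43, adjusted p = 0.0982). It passed as lower in DESeq2 (0.0463), with no filter (0.0329), without high replicate 3 (0.0211) and with the GC trend removed (0.00503), where the talin TLN2 also passed (log2 0.19, adjusted p = 0.0248). With that trend removed, 18.9% of all genes passed. Of 5 inhibitors of activation none passed in edgeR (median -0.07), and of 13 genes of integrin trafficking none passed (median 0.01). In both lists 0 genes had an unadjusted p under 0.05, and DESeq2 and limma called 0. DOK1 and HAX1 had the smallest p in these lists (log2 0.17 and -0.19, adjusted p = 0.471 and 0.282), and with the GC trend removed both passed, DOK1 as higher (0.047) and HAX1 as lower (0.0245). Of 3 hemidesmosome partners of ITGB4, the cytoskeletal linker DST rose by 0.48 (adjusted p = 0.00796), and by 0.25 (adjusted p = 0.0678) with the gene length trend removed. Of 6 signalling genes, FYN, a Src-family kinase, rose by 0.45 (adjusted p = 0.00891). With the GC trend removed PLEC (log2 0.19, adjusted p = 0.0132) passed beside DST, and PTK2 (0.20, adjusted p = 0.0123) and PXN (0.21, adjusted p = 0.00816) beside FYN. Without low replicate 4 the calls of CD82 (0.0761), PTGFRN (0.0789), DST (0.0563) and FYN (0.0578) were lost, and that of PTGFRN also without high replicate 2 (0.0693) or low replicate 3 (0.0685).

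**Figure D4:**
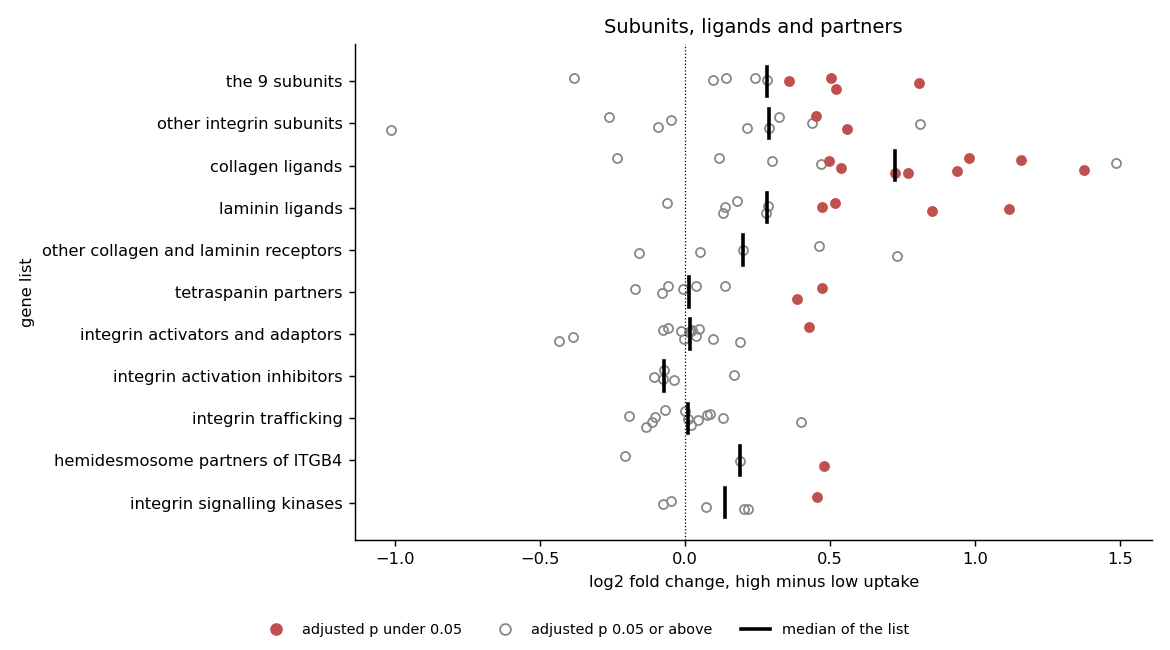
Log2 fold change, high minus low uptake, of each tested gene in the 9 subunits and 10 lists of relatives, ligands and partners; filled red points have an adjusted p under 0.05, and black bars are list medians. Filled points are 4 of 9 for the subunits, 8 of 13 for collagens and 4 of 10 for laminins, and inhibitors and trafficking genes have none as tested. Among all genes tested, 4.29% passed.

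The genes whose profile over the 6 libraries lay nearest to that of ITGA11 were HSPG2, FAIM2 and PDGFRB, by root mean square distance between log2 CPM centred on each gene's mean (0.0442, 0.0488 and 0.0518, beside a median distance of 0.467 over 14597 genes). HSPG2 encodes perlecan of the basement membrane and PDGFRB a growth factor receptor of mural cells and fibroblasts. The nearest to ITGA2 were MYO3B, PHLDA1 and LOC730101 (0.0453, 0.0522 and 0.0556, median 0.311), and the nearest to ITGB1 were MMP16, CDK2AP1 and CDK6 (0.0220, 0.0262 and 0.0281, median 0.252). Among the members, ITGB1 lay nearest to ITGA10 (0.101) and ITGA2 (0.119) and farther from ITGA11 (0.342), whose own nearest member was ITGA7 (0.182). Of the neighbours named for ITGA2 and ITGB1, MYO3B, MMP16 and CDK6 did not pass in edgeR (adjusted p = 0.147, 0.106 and 0.0968). The nearest of 14597 genes lie below the median by selection, so the median does not show that they are unusually close. All these distances describe 6 libraries that share their groups, with no test.

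Since ITGA11 is known from fibroblasts, markers of fibroblasts and mural cells were set beside it. Their summed level was 87.9 to 103 CPM in high uptake and 54.0 to 67.7 CPM in low uptake, of which PDGFRB alone averaged 52.05 and 29.38 CPM. Of 5 tested markers 2 were higher (LUM by 0.85 and PDGFRB by 0.83 on the log2 scale) and none lower. Among all genes tested, 4.29% passed. ACTA2 (log2 0.48), MYH11 (0.05) and RGS5 (-0.19) did not pass. DCN, a defining fibroblast marker, averaged 0.438 and 0.159 CPM. The neuronal list had 1 of 3 tested markers higher (SNAP25, log2 0.80), at a summed 36.7 to 42.5 CPM against 26.4 to 30.5 CPM. No tested marker of astrocytes, epithelium, endothelium, oligodendrocytes or muscle passed, and the 4 immune markers were too low to test, at 1.11 CPM or less in sum. The part of these markers in the integrin differences was not tested.

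**Figure D5:**
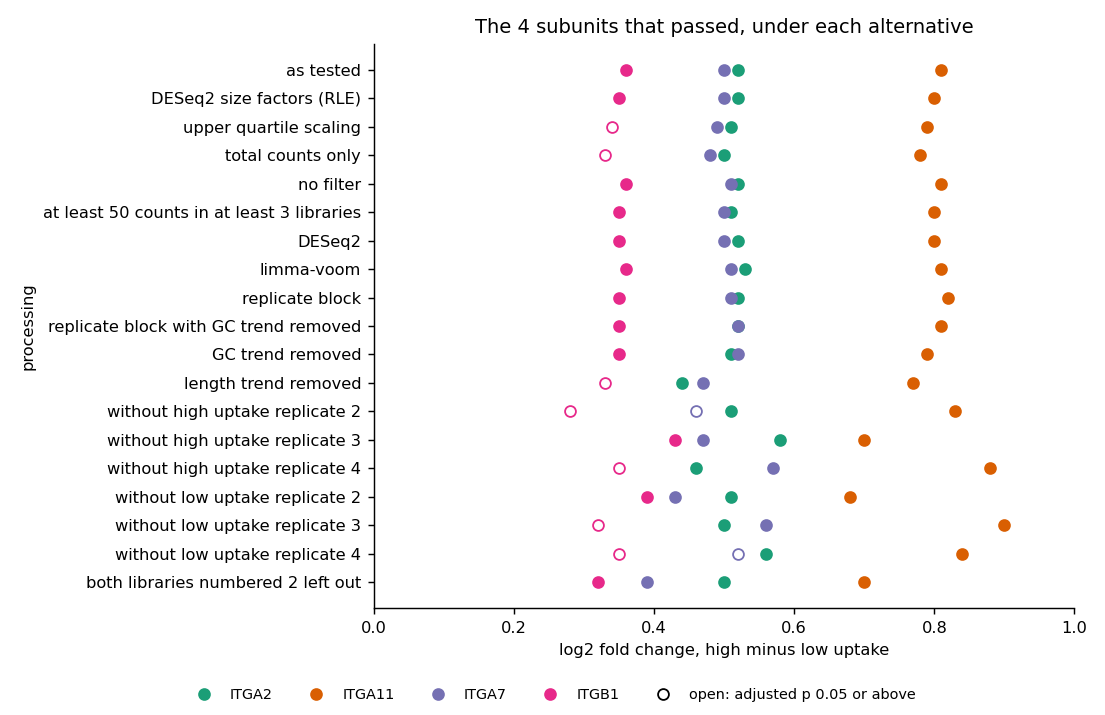
Log2 fold change of ITGA2, ITGA11, ITGA7 and ITGB1 as tested and under the 18 alternatives; filled points have an adjusted p under 0.05 and open points do not. ITGA2 and ITGA11 stay filled throughout, ITGA7 is open in 2 and ITGB1 in 7.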

How the data were processed

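RNA of 6 libraries (U87 cells, 3 of high and 3 of low peptide uptake) was prepared with a directional library kit, per the labels' protocols. Reads had been handled with fastp, STAR and featureCounts against hg19, per the submitters' processing notes. Neither tool versions nor the annotation nor the strand setting is given in the sources used here. The authors deposited whole-number counts per gene symbol beside FPKM and TPM columns, per the file headers, and a list of symbols without values. Counts were tested, TPM gave levels and shares, and FPKM gave gene lengths.

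Groups came from the sample titles, and libraries held 13712263 to 40742857 counts. Genes were kept by filterByExpr of edgeR 4.0.16 (minimum count 10, minimum total 15), which left 14598 of 25680. Groups were compared with the quasi-likelihood F-test of edgeR, robust, with TMM scaling, no covariate, two-sided, Benjamini-Hochberg adjusted over all genes at 0.05. SE is the size of the log2 fold change divided by the square root of F, and intervals use the moderated degrees of freedom. Alternatives were run with DESeq2 1.42.0, limma 3.58.1, other scalings and filters, GC or length trends removed, a replicate block, and libraries left out. In simulated counts for 14598 genes, edgeR called 24% of the genes given a 1.3-fold change. It called 78% of those given 1.5-fold, 84% of those given 2-fold and 98% of those given 3-fold changes, and 10 of 14398 unchanged genes. The counts were drawn independently for each gene, with no GC trend and no replicate effect. These rates therefore need not hold for the real libraries. The members and lists were chosen with earlier results of these data known. Named genes were the 9 members, other integrin subunits that passed, and in each list the 3 of smallest p that passed or else the 1 of smallest p, with defining cell type markers and the 3 genes nearest in profile to ITGA11, ITGA2 and ITGB1; MRC2 was named under that rule, while CD151, ITGA5, ITGAV, DAG1, RPSA, FERMT3, TLN2, PLEC, PTK2, PXN and the pseudogene were named after their values were seen. Lists were described by counts and medians, with no set test.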

Additional observations from a re-analysis of the deposited data

How the results depend on the processing

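Of the 18 alternatives, 16 left 3 or 4 of the 9 subunits past the threshold. ITGA2 (log2 0.44 to 0.58) and ITGA11 (0.68 to 0.90) passed in all 18. With 1 library left out in turn, 2 to 4 of the 9 passed (2 without high replicate 2 or low replicate 4), 10 to 19 genes of the other lists (19 as tested, 10 without low replicate 4) and 232 to 738 of all genes (626 as tested; lowest without low replicate 4, and 282, 379 and 276 when high replicate 2, high replicate 4 or low replicate 3 was left out). ITGA3 ranged from -0.01, its one change of sign, without high replicate 3, to 0.15 when 1 library was left out. With the GC trend of each library removed, 2663 of all genes and 33 list genes passed, of which 1506 (56.6%, against 70.6% as tested) and 31 were higher. The cause was not tested. With the replicate number as a block, 3176 of all genes and 35 list genes passed, and with that block and the GC trend removed 4056 and 42; the same 4 subunits passed in both. Under the block, and under the block with the GC trend removed, 5 and 6 of the 11 other integrin subunits passed (2 as tested), 3 and 3 of the 5 other collagen and laminin receptors (0 as tested, MRC2 and DAG1 higher, RPSA lower), 3 and 3 of the 14 activators and adaptors (1 as tested, FERMT3 lower), 0 and 1 of the 5 inhibitors, and 1 and 2 of the 13 trafficking genes, all lower. These 2 fits called 21.8% and 28.7% of all genes. No label ties equal numbers to a shared culture or day. Deviations of same-numbered libraries correlated at 0.452, 0.304 and 0.0873 across genes, and low replicate 4 correlated best with high replicate 3 (0.216), so the block is a hint from the data only. For shares and the ratio of alpha subunits to ITGB1 the block leaves the mean difference as it is by construction. The sign-flip test under the block cannot go below p = 0.25 (exact). Shares and the ratio moved by less than 1 SD in all 72 repeats and kept their sign in 71. The 72 include the repeats under the block, whose outcome was fixed in advance. They also include those with 1 library left out. With 3 libraries per group these cannot move by 1 SD, taken as the root mean square of the SDs of both groups. For them the sign could change, but staying within 1 SD was fixed in advance. Most of the 72 therefore do not measure how stable the sizes are. The exception in sign was the ITGA2 share without high replicate 3 (0.738 against -1.40 percentage points). Depth limits ITGA6 and ITGB4, with 14 to 128 counts per library, and changes under 1.5-fold are often missed.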
